A study of Mus musculus with 12 samples.

Results

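The subject is the loss of the interferon gamma receptor gene Ifngr1 in myeloid cells of regenerating mouse muscle, in mice given an isotype control antibody. The comparison holds 6 of the 12 libraries of the series, chosen by genotype and antibody alone, and covers all genes. In 3 libraries the mice were Ifngr1 null/null and received the isotype antibody, and in the other 3 they were Ifngr1 wt/null and received the same antibody. The tibialis anterior was injured with notexin, a snake phospholipase that destroys muscle fibres, and antibody was injected into the peritoneum every day. Cells sorted on day 5 were alive (PI-), CD45+, CD11B+ and LY6G/SIGLECF-, a gate for monocytes, macrophages and some dendritic cells that leaves out neutrophils and eosinophils. Both genotypes carried at least 1 null allele, so no library came from mice with a full set of Ifngr1 alleles. Age and sex were not among the labels used here, nor was the build of the null allele or whether each sample was a separate mouse. The p-values below therefore measure the spread between these samples, which may be technical. The 6 anti-TNF libraries of the series, with the same genotypes, appear below as values that this comparison does not use. The labels do not say whether mice or litters were shared between antibodies.

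IFN-γ is a cytokine made mainly by T and NK cells. It binds a receptor of the chains Ifngr1, which holds the ligand, and Ifngr2, and the kinases Jak1 and Jak2 then start a signal to the nucleus that switches on genes of antigen presentation, antimicrobial defence and T cell attraction. After muscle injury, monocytes enter the tissue, clear debris as inflammatory macrophages and turn over some days into reparative macrophages. Many inflammatory genes of these cells are also driven by NF-κB, a family of transcription factors held in the cytoplasm by IκB inhibitors.

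The libraries were of even depth, with 23.9, 26.5 and 29.9 M counts (M is mega) in null/null isotype 1 to 3 and 25.4, 23.2 and 27.7 M in wt/null isotype 1 to 3. Of 24421 gene symbols, 12597 passed the filter on low counts and were tested. The labelled cell type, macrophages, was checked against its markers, and Csf1r, Adgre1, Cd68, Mertk, C1qa and Lyz2 were abundant in all 6 libraries. Lyz2, a lysozyme, lay between 15600 and 19100 CPM in null/null and between 15400 and 17400 CPM in wt/null, where CPM is counts per M counts of the library after TMM scaling. The first principal components, with 27.7% and 23.4% of the variance, mixed the genotypes. On the third, with 18.3%, null/null isotype 1 and 3 scored 18.5 and 16.3, while null/null isotype 2 scored -7.55 and the wt/null libraries lay between -11.0 and -8.02. The neutrophil genes S100a8 and Ltf were at 10.8 and 7.26 CPM in null/null isotype 1 and at most 1.88 and 0.591 CPM in the other 5. All libraries read as male, with 0 to 1 counts of Xist.

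Ifngr1 itself fell in null/null cells and was the only gene called. It had 88.0, 88.3 and 90.5 CPM in null/null cells (2160, 2282 and 2610 counts), against 240, 227 and 230 CPM in wt/null cells (6033, 5305 and 6603 counts). The genotypes did not come near each other, and the null/null mean was 38.3% of the wt/null mean. The log2 fold change was -1.39 ± 0.08 (SE, 95% interval -1.57 to -1.20), with an adjusted p of 6.58e-05 in edgeR's quasi-likelihood test with Benjamini-Hochberg adjustment. The gene lies on chromosome 10 from 19591949 to 19610229 (GRCm38, plus strand). Transcript from this locus was thus still counted in null/null cells, and which exons it came from was not analysed here.

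In the receptor pathway as a whole no further gene was called. Of 13 genes tested in this list, 5 were higher and 8 lower, with a median log2 fold change of -0.01. Ifngr2, the signalling chain of the receptor, had 215, 214 and 198 CPM in null/null cells against 214, 205 and 186 CPM in wt/null cells, a log2 fold change of 0.05 ± 0.09. Socs3, which restrains receptors that signal through Stat3, had 139, 192 and 179 CPM in null/null cells against 105, 129 and 144 CPM in wt/null cells, with an overlap of 1 library. Within 20 Mb of Ifngr1, where alleles linked to the targeted locus would lie, 102 other genes were tested. At an unadjusted p below 0.05 stood 0 of them, where 3.11% of the genes elsewhere did. The median log2 fold change was -0.081 inside this window and 0.0045 elsewhere, and this shift was not tested.

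Across all genes the genotype difference was small. Called genes made up 0.00794% of the 12597 tested (Ifngr1 alone), and the next smallest adjusted p in edgeR was 0.985, so no other gene named below for this comparison had a smaller one. At an unadjusted p below 0.05 there were 391 genes, where 630 would be expected if no gene differed. Of them, 173 (1.37% of genes tested) were higher and 218 (1.73%) lower in null/null cells. DESeq2 on the same libraries called 10 genes, among them Ccl22, Marcksl1 and Ptprb beside Ifngr1 and 4 IFN-γ-inducible genes, and limma voom called 1. The count at an unadjusted p below 0.05 was 1641 with null/null isotype 1 left out, 645 with wt/null isotype 3 left out and 240 with wt/null isotype 1 left out. All 3 null/null libraries lay above all 3 wt/null libraries for 541 genes (4.29%) and below them for 459 (3.64%). With 3 against 3 libraries, an exact permutation test of a single gene cannot go below p = 0.1. Differences above 1.5 times were rare at moderate levels: of the 9981 genes whose log2 CPM averaged 2 or above, 21 were more than 1.5 times higher and 17 more than 1.5 times lower.

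**Figure D1:**
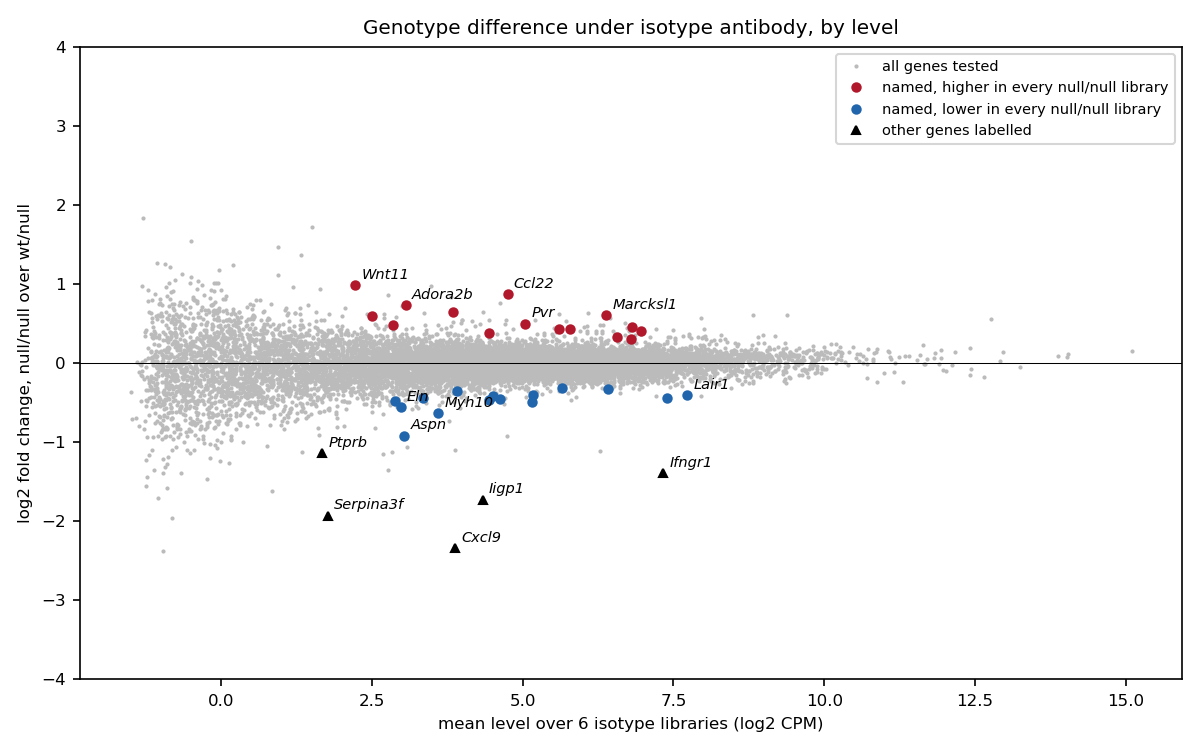
Log2 fold change, null/null over wt/null under isotype antibody, of each tested gene (vertical axis) against its mean log2 CPM over the 6 libraries (horizontal axis). Red and blue points are the 15 named genes each way, grey points all genes tested, and black triangles other genes discussed. The cloud narrows with level around 0, and Ifngr1 at -1.39 lies outside it at a level where few other genes do.

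Genes with higher levels in null/null cells included secreted factors, surface receptors, signalling adaptors and metabolic enzymes. The 15 genes named were those with the smallest p among genes that did not overlap between genotypes, averaged 2 or above in log2 CPM and were not in the list of IFN-γ-inducible genes. Separation of the genotypes was thus a condition of the choice, and a small spread was favoured by it. The log2 fold changes of the 15 lay between 0.30 (Sdf2l1) and 0.99 (Wnt11). The last gene inside this choice was Stk40 at 0.43, and the first outside it was Lag3 at 0.37.

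Among the secreted factors, Ccl22 draws cells that carry Ccr4, such as regulatory and type 2 helper T cells. Its levels were 31.7, 29.6 and 42.5 CPM in null/null cells, against 23.4, 19.2 and 14.3 CPM in wt/null cells. The lowest null/null library lay above the highest wt/null library, and the log2 fold change was 0.87 ± 0.19 (SE, 95% interval 0.43 to 1.30). Its adjusted p was 0.985 in edgeR and 0.0133 in DESeq2. Ccl17, the other Ccr4 ligand, lies near it on chromosome 8 (94810453 to 94812036, with Ccl22 at 94745590 to 94751699). It had 3.71, 2.44 and 4.37 CPM in null/null cells (91, 63 and 126 counts), against 1.79, 1.93 and 0.417 CPM in wt/null cells (45, 45 and 12 counts). Both ligands were thus higher in every null/null library, and Ccl17 had the larger fold at a far lower level, 1.37 ± 0.47. Wnt11, a secreted Wnt ligand that acts mostly without β-catenin, had 4.44, 8.51 and 5.30 CPM in null/null cells against 2.63, 3.34 and 3.20 CPM in wt/null cells. Null/null isotype 2 was the highest library for Wnt11, and the other null/null libraries lay closer to wt/null.

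Among the surface proteins, Pvr (CD155) is an adhesion molecule that binds DNAM-1 and TIGIT on T and NK cells. Its levels were 34.9, 44.0 and 36.9 CPM in null/null cells, against 25.3, 24.7 and 31.6 CPM in wt/null cells, a log2 fold change of 0.50 ± 0.13. Adora2b is the low-affinity receptor for adenosine. It had 10.1, 11.3 and 9.57 CPM in null/null cells against 5.10, 5.06 and 8.45 CPM in wt/null cells, 0.73 ± 0.21 on the log2 scale. In both genes wt/null isotype 3 was the wt/null library nearest to null/null. Tmem150a, a membrane protein, had 8.03, 8.86 and 8.01 CPM in null/null cells and 5.90, 5.87 and 6.01 CPM in wt/null cells, with little spread inside either genotype.

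Of the signalling genes, Marcksl1, which links the membrane to actin and is related to the kinase C substrate MARCKS, had the smallest p after Ifngr1 among genes named as higher. It had 99.6, 106 and 95.8 CPM in null/null cells (2444, 2733 and 2765 counts), against 54.4, 70.1 and 73.5 CPM in wt/null cells (1364, 1635 and 2116 counts). The null/null libraries lay close together and all above the wt/null ones, with a log2 fold change of 0.61 ± 0.12 (95% interval 0.35 to 0.86). The adjusted p was 0.985 in edgeR and 0.0100 in DESeq2. Sh2b2, an adaptor of receptor tyrosine kinases and Jak2, had 50.7, 57.6 and 59.3 CPM in null/null cells and 39.9, 41.7 and 42.7 CPM in wt/null cells, 0.43 ± 0.09. Stk40, a pseudokinase, and Cdk20, a cyclin-dependent kinase of the cell cycle, differed by 0.43 ± 0.13 and 0.38 ± 0.11. Mxi1, a partner of Max that opposes Myc, had 116, 106 and 95.6 CPM in null/null cells and 86.3, 84.8 and 80.7 CPM in wt/null cells.

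The metabolic genes were Got1 and Fads3. Got1, the cytosolic aspartate aminotransferase of the malate-aspartate shuttle, had 128, 151 and 145 CPM in null/null cells against 109, 93.1 and 118 CPM in wt/null cells, a log2 fold change of 0.40 ± 0.11. Fads3, a fatty acid desaturase, had 6.60, 6.93 and 6.73 CPM in null/null cells against 4.26, 4.89 and 4.34 CPM in wt/null cells, 0.59 ± 0.16. Both separated the genotypes, as the choice required, and Fads3 had little spread inside either genotype. Pisd-ps1 and Pisd-ps2, pseudogenes that share sequence with the phospholipid enzyme gene Pisd, differed by 0.45 ± 0.13 and 0.64 ± 0.17. Reads of these copies may be shared between them, so both values are uncertain, and Pisd itself differed by 0.06 ± 0.09.

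**Figure D2:**
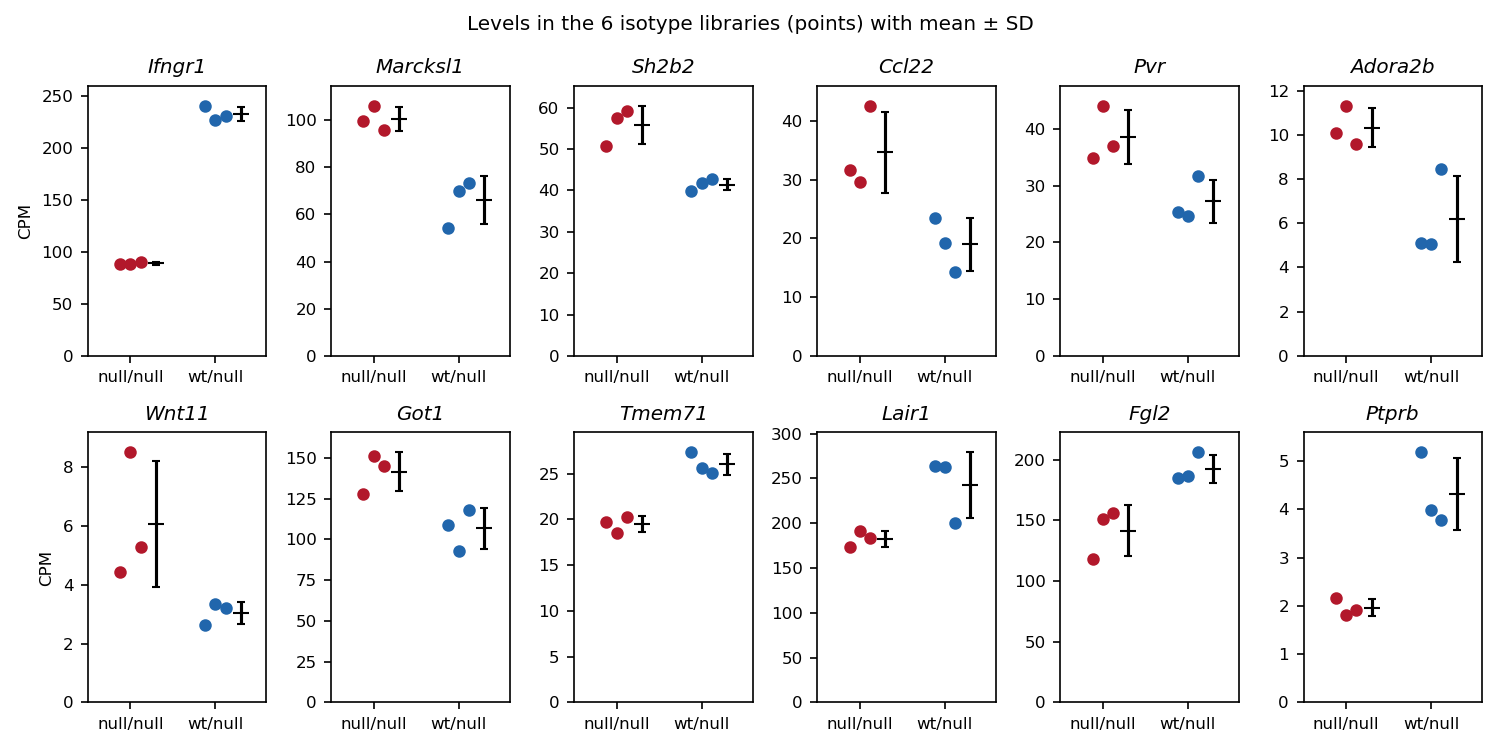
Levels in CPM (vertical axes, from 0) of 12 genes in the 3 null/null isotype libraries (red, left) and the 3 wt/null isotype libraries (blue, right), each point 1 library, with mean ± SD in black. No genotype overlaps the other in any panel, which was a condition of the choice for all but Ifngr1 and Ptprb. The gap is widest for Ifngr1, at 88.9 ± 1.34 CPM in null/null and 232 ± 6.99 CPM in wt/null.

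NF-κB subunits and their inhibitors were all estimated higher in null/null cells, by small amounts. Of 15 genes in this list, 15 were higher, with a median log2 fold change of 0.26, where 6394 of all 12597 genes were higher with a median of 0.00. None was called, 3 had an unadjusted p below 0.05 and 2 did not overlap between genotypes, where 1.37% and 4.29% of all genes did so in this direction. These libraries share their processing, so the 15 estimates are not independent of one another. Nfkb2, the p100 subunit of the non-canonical pathway, had 176, 189 and 181 CPM in null/null cells against 147, 154 and 156 CPM in wt/null cells, 0.26 ± 0.08. Nfkbie (IκBε) had 77.8, 125 and 79.4 CPM in null/null cells against 63.7, 61.6 and 76.0 CPM in wt/null cells. Nfkbia (IκBα) had 222, 316 and 310 CPM in null/null cells against 208, 211 and 257 CPM in wt/null cells. Nfkb2 and Nfkbie separated the genotypes, and for Nfkbia null/null isotype 1 lay inside the wt/null range. Without null/null isotype 2 the median of the list was 0.13, with 13 of 15 higher, and among libraries titled 40 alone it was 0.21, with 14 of 15 higher.

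The promoters of these inhibitor and subunit genes are known for κB sites, through which NF-κB raises its own regulators, so the bases before the start sites of the 3 genes above are shown with matches to the κB consensus in capitals. The sequences are the 250 bases before the RefSeq start site (GRCm38.p6), printed along the gene's strand, and matches were taken on both strands. The site of Nfkb2 farthest from the start matches on both strands with a shift of 1 base, so its capitals cover both.
Nfkb2, chr19:46304487-46304736 (+): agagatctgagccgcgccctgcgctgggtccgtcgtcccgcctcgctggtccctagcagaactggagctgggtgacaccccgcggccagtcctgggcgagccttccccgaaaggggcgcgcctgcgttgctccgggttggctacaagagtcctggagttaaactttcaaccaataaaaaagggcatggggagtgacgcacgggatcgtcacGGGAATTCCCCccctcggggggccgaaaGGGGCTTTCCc
Nfkbie, chr17:45555450-45555699 (+): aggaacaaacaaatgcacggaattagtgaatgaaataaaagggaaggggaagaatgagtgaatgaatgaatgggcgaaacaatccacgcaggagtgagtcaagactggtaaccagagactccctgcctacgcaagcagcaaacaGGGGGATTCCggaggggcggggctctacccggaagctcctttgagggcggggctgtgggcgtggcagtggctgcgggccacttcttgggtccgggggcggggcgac
Nfkbia, chr12:55492648-55492897 (-): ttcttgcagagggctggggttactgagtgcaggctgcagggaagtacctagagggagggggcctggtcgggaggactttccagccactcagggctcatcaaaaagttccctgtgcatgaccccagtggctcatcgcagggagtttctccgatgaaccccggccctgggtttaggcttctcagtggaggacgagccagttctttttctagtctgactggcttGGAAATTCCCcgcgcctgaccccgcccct
The window searched ran from 250 bases before to 50 bases after the start. It held a match in 8 of the 12 list genes with a RefSeq promoter, against 6.29% of the 9640 tested genes with one. A gene was counted where any of its promoters matched. Among the genes named as higher, 1 of 12 with a promoter (Got1) held one. TTCNNNGAA, the gamma-activated sequence, was present in 0 of these 12 and in 8.27% of the tested genes with a promoter. Among the genes named as lower further below, 1 of 11 with a promoter (Fgl2) held it. A match describes letters and was not tested as a binding site.

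Inflammatory cytokines followed the same direction. Of 14 tested, 13 were higher in null/null cells, with a median log2 fold change of 0.34, and 2 stood at an unadjusted p under 0.05, where 1.37% of all genes did in this direction. Tnfsf9 (4-1BB ligand, which costimulates T cells) had 15.3, 23.5 and 24.1 CPM in null/null cells against 14.9, 13.5 and 15.2 CPM in wt/null cells. Null/null isotype 1 lay only just above wt/null for Tnfsf9. Il12b, the p40 chain shared by the cytokines IL-12 and IL-23, had 2.69, 3.06 and 4.06 CPM in null/null cells against 1.95, 1.33 and 2.57 CPM in wt/null cells. Tnf and Il1b overlapped between genotypes: Il1b had 229, 391 and 273 CPM in null/null cells and 178, 156 and 269 CPM in wt/null cells. Il27 was the 1 member with a lower estimate, at -0.48.

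Chemokines outside the Cxcr3 ligands were also mostly higher, 19 of 21 with a median log2 fold change of 0.17 and 5 at an unadjusted p below 0.05, against the same 1.37%. Beside Ccl22 and Ccl17 these were Pf4, Ccl2 and Ppbp. Pf4, a chemokine known from platelets, had 248, 218 and 210 CPM in null/null cells against 179, 207 and 148 CPM in wt/null cells. Ccl2, the main attractant of Ccr2+ monocytes, had 48.2, 46.5 and 36.1 CPM in null/null cells against 19.7, 33.4 and 36.3 CPM in wt/null cells, with wt/null isotype 3 level with null/null isotype 3. Without wt/null isotype 3 the median of the list was 0.42, and among libraries titled 40, which leave out that library too, it was 0.49. Medians with other libraries left out are not given here. Of 10 chemokine receptors, 5 were higher, among them Ccr7, which guides dendritic cells to lymph nodes, at 25.2, 23.2 and 44.4 CPM in null/null cells against 19.7, 15.0 and 20.2 CPM in wt/null cells. Ccr2, the receptor of Ccl2, had the opposite order, at 367, 397 and 318 CPM in null/null cells against 444, 417 and 435 CPM in wt/null cells, and separated the genotypes.

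Receptors for microbial products were mixed. Cd14, the coreceptor for lipopolysaccharide, had 572, 1060 and 776 CPM in null/null cells against 496, 446 and 641 CPM in wt/null cells, and Tlr5 differed by 0.55 ± 0.21, while Tlr4 differed by -0.28 ± 0.13. In Toll-like receptors and adaptors as a whole, 6 of 18 were higher. Immediate early genes, which cells also switch on during tissue digestion, were higher in 17 of 20, with a median of 0.11 and 0 at an unadjusted p below 0.05. The highest member by fold, the nuclear receptor Nr4a3, had 44.0, 78.5 and 53.9 CPM in null/null cells against 33.7, 25.2 and 55.8 CPM in wt/null cells. Within each genotype the library titled 46 (null/null isotype 2, wt/null isotype 3) had the highest Cd14, Nr4a1, Nr4a2, Nr4a3 and Cxcl1. Of these, Cd14, Nr4a2, Nr4a3 and Cxcl1 were among genes chosen after their values were seen. The share of all genes with this order is not given here. Over the 6 fits that leave out 1 library, the immediate early median lay between 0.00 (10 of 20 higher, null/null isotype 2 left out) and 0.39 (20 of 20, wt/null isotype 3 left out). It was 0.02 with wt/null isotype 1 left out and 0.04 with wt/null isotype 2 left out. It was 0.26 among libraries titled 40 alone, with 18 of 20 higher. The part of sorting and digestion in the inflammatory lists was not tested. Dendritic cell markers summed to 124 to 171 CPM in null/null libraries and 116 to 141 CPM in wt/null libraries. Of the 11 markers, which include Ccr7, 8 were higher, with a median of 0.10, and none was at 0 in all 6 libraries. They went both ways, from -0.70 ± 0.56 for Clec9a to 0.76 ± 0.25 for Ccr7, with Flt3 at 0.07 ± 0.13 and Itgae at 0.64 ± 0.59. The part of dendritic cells in the levels of Ccl22 and Ccr7 was not tested.

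**Figure D3:**
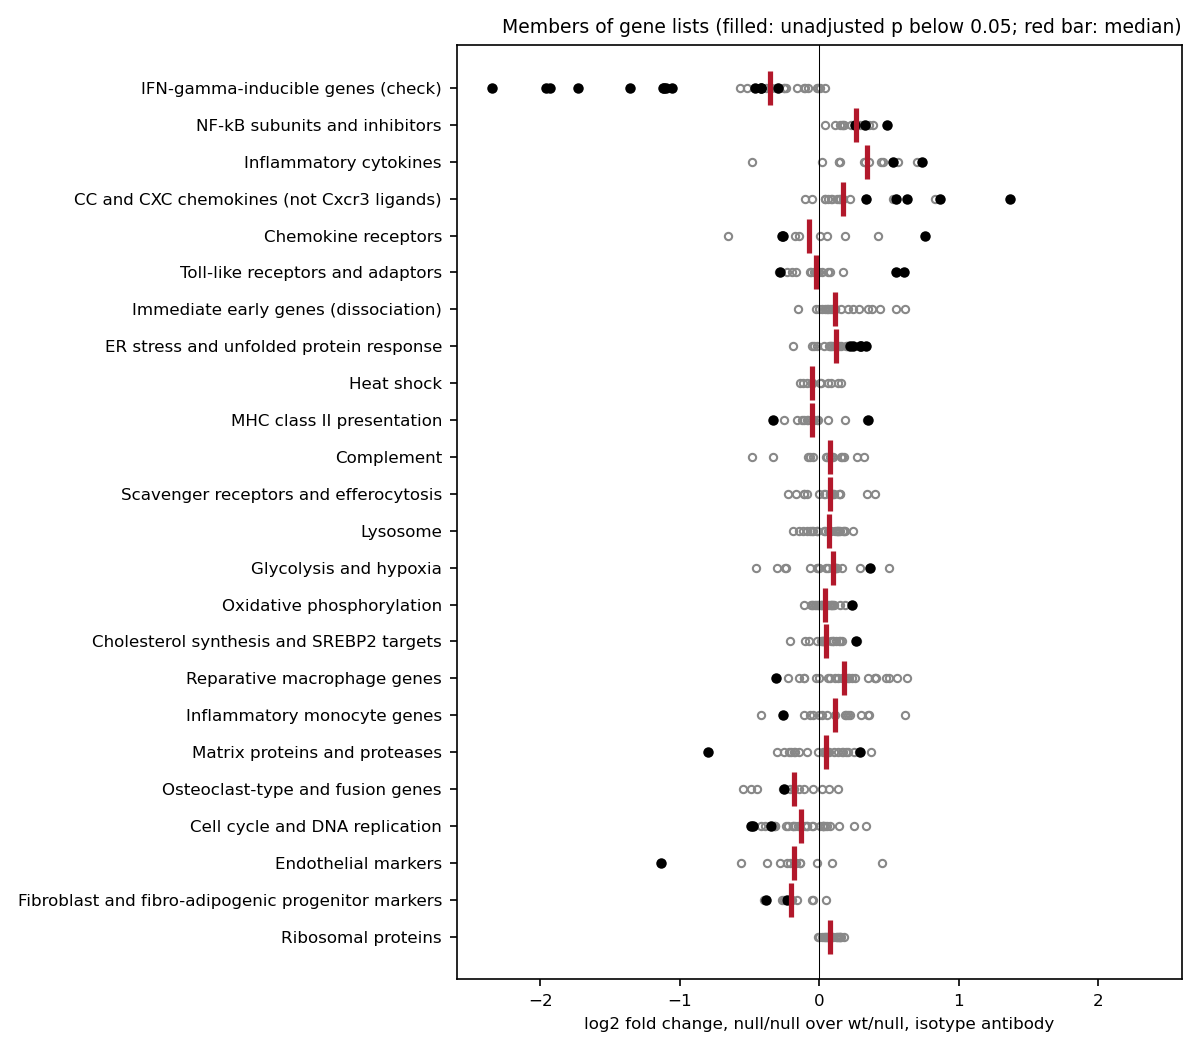
Log2 fold changes, null/null over wt/null under isotype antibody (horizontal axis), of the members of 24 gene lists (rows). Each circle is 1 gene, filled where its unadjusted p was below 0.05, and the red bar is the median. All 15 NF-κB genes and 30 of 32 IFN-γ-inducible genes lie on opposite sides of 0.

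Genes of protein folding in the endoplasmic reticulum were slightly higher in null/null cells. Of 23 tested, 19 were higher, with a median log2 fold change of 0.12, and 5 had an unadjusted p below 0.05, all higher, where 1.37% of all genes met that mark in this direction. Sdf2l1, a cofactor of the chaperone Hspa5 (BiP), had 119, 116 and 131 CPM in null/null cells against 105, 98.0 and 94.1 CPM in wt/null cells, and the genotypes did not overlap. Pdia6, a protein disulfide isomerase, had 337, 305 and 319 CPM in null/null cells against 303, 269 and 241 CPM in wt/null cells, separated by a narrow gap. Hyou1, a large chaperone of the same compartment, had 210, 174 and 224 CPM in null/null cells against 176, 169 and 151 CPM in wt/null cells. Creld2, another client-binding protein of this group, had 48.5, 43.5 and 59.6 CPM in null/null cells against 45.5, 38.2 and 36.5 CPM in wt/null cells. For both, null/null isotype 2 lay inside the wt/null range. The fifth, Manf, was chosen after its value was seen and differed by 0.22. Calr (calreticulin) was the other member without overlap, at 0.13 ± 0.09. Across left-out libraries the median of the list stayed between 0.09 and 0.15.

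Many of these genes share the endoplasmic reticulum stress element, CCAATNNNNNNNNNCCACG, which is shown in capitals in the bases before the start sites of Creld2 and Pdia6. In Creld2 the element reads on the opposite strand.
Creld2, chr15:88819396-88819645 (+): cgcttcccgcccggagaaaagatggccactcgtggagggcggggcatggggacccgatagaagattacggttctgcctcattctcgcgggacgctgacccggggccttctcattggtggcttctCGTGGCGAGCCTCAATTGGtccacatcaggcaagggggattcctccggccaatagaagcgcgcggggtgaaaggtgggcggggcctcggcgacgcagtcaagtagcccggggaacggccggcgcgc
Pdia6, chr12:17266339-17266588 (+): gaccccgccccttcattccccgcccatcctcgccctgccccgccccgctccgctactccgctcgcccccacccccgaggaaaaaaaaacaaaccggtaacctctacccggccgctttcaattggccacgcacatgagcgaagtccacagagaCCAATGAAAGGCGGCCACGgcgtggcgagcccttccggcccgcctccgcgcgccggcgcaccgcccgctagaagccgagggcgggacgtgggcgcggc
The element was found on either strand in 7 of the 21 list genes with a promoter (Calr, Canx, Creld2, Dnajc3, Hsp90b1, Hspa5 and Pdia6). Among all tested genes with a promoter, 0.166% held it. Of these 7, Creld2 and Pdia6 had an unadjusted p below 0.05, while Hspa5, Calr and Hsp90b1 differed by 0.21, 0.13 and 0.08, and Canx and Dnajc3 by -0.05 and -0.04.

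Lists of metabolism showed small differences. Of 22 genes of glycolysis and hypoxia, 14 were higher, with a median of 0.10. Slc2a1, the glucose transporter GLUT1, differed by 0.36 ± 0.15, with an overlap. Cholesterol synthesis genes were higher in 16 of 20 with a median of 0.05, and Mvd, the mevalonate diphosphate decarboxylase, had 20.3, 21.0 and 24.4 CPM in null/null cells against 18.5, 18.2 and 18.1 CPM in wt/null cells. Nuclear genes of oxidative phosphorylation were higher in 15 of 23, with a median of 0.04, and the complex I subunit Ndufa2 separated the genotypes at 0.24 ± 0.10. Lysosome genes were higher in 16 of 25 and autophagy genes in 11 of 17, with medians of 0.07 for each and 0 members at an unadjusted p below 0.05. Odc1, which makes the polyamine putrescine, had 73.1, 96.1 and 64.0 CPM in null/null cells against 45.7, 53.9 and 68.6 CPM in wt/null cells. Fabp5, a fatty acid carrier, and Alox5, the first enzyme of leukotriene synthesis, differed by 0.35 ± 0.15 and 0.31 ± 0.13, each with an overlap. Ribosomal protein genes, a check on shared shifts, were higher in 19 of 20 with a median of 0.08.

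Genes with lower levels in null/null cells had mixed roles. The 15 named were chosen by the same rule, so their lack of overlap was fixed by it too. The 15 named lay between -0.92 (Aspn) and -0.32 (Atp11b), and the last inside the choice, Knstrn, and the first outside it, Wrn, both stood at -0.35. Tmem71 had the smallest p of them, with 19.7, 18.5 and 20.2 CPM in null/null cells against 27.3, 25.6 and 25.1 CPM in wt/null cells, -0.42 ± 0.10. Its genotypes were well apart and each was tight. Pgap1, which remodels GPI anchors, had 32.8, 27.0 and 28.6 CPM in null/null cells against 43.9, 35.2 and 44.8 CPM in wt/null cells.

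Several encode immune regulators. Lair1 is an inhibitory receptor of myeloid cells that binds collagen. It had 173, 191 and 183 CPM in null/null cells against 264, 263 and 200 CPM in wt/null cells, -0.41 ± 0.12, with wt/null isotype 3 close to null/null. Fgl2, a fibrinogen-like protein with clotting and immunosuppressive activity, had 118, 151 and 156 CPM in null/null cells against 185, 187 and 206 CPM in wt/null cells, -0.44 ± 0.11. March1, the ubiquitin ligase that removes MHC class II and Cd86 from the surface, had 74.2, 74.0 and 76.8 CPM in null/null cells against 97.2, 82.9 and 103 CPM in wt/null cells. Its null/null libraries were nearly level. In the MHC class II list, 4 of 15 were higher, with a median of -0.05, and Cd80, a costimulatory ligand, differed by 0.35 ± 0.15 with an overlap.

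Other named genes have general roles. Fam98b, a subunit of the tRNA ligase complex, had 29.9, 35.3 and 27.6 CPM in null/null cells against 40.0, 41.8 and 41.3 CPM in wt/null cells. Atp11b, a phospholipid flippase, differed by -0.32 ± 0.10, Zfp874a, a zinc finger gene, by -0.44 ± 0.14, and Trp53inp1, a p53 target, by -0.46 ± 0.14. For Trp53inp1 wt/null isotype 3 stood high, with 22.1, 20.9 and 19.4 CPM in null/null cells and 25.5, 24.7 and 35.7 CPM in wt/null cells. Knstrn, a spindle protein, differed by -0.35 ± 0.12, and the cell cycle list was lower in 20 of 30 with a median of -0.13. Its 3 members at an unadjusted p below 0.05, Bub1, Cdc20 and Ccnb2, act in mitosis and all overlapped. Cdc20 had 10.5, 12.7 and 8.15 CPM in null/null cells against 10.9, 15.9 and 17.1 CPM in wt/null cells. Over the fits that leave out 1 library the median of the list lay between -0.25 (without wt/null isotype 1) and 0.01 (without null/null isotype 3), and it was -0.03 without wt/null isotype 3.

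Among the named genes known from matrix, Aspn (asporin), a small proteoglycan of fibroblasts, had 6.73, 5.07 and 5.17 CPM in null/null cells (165, 131 and 149 counts) against 15.0, 8.32 and 8.69 CPM in wt/null cells (377, 194 and 250 counts), -0.92 ± 0.24. Wt/null isotype 1 was the high library. Eln (elastin) had 6.44, 6.35 and 6.17 CPM in null/null cells against 9.56, 9.39 and 9.0 CPM in wt/null cells, with hardly any spread inside either genotype. Cald1 (caldesmon) and Myh10 (non-muscle myosin IIB), genes of the actin cytoskeleton, differed by -0.48 ± 0.16 and -0.63 ± 0.21, and Calcrl, a receptor for CGRP and adrenomedullin, by -0.47 ± 0.14. Timp3, a matrix-bound inhibitor of metalloproteases, had 2.93, 2.32 and 3.61 CPM in null/null cells against 7.37, 3.99 and 4.10 CPM in wt/null cells. Cthrc1, a collagen-associated protein of activated fibroblasts chosen after its values were seen, differed by -0.91 ± 0.28.

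Most markers of fibroblasts and endothelium had lower estimates too. Fibroblast markers were lower in 10 of 11, with a median of -0.20, and summed to 1160 to 1210 CPM in null/null libraries and 1250 to 1570 CPM in wt/null libraries, with none at 0 in all 6. Col3a1 had 372, 391 and 376 CPM in null/null cells against 503, 405 and 428 CPM in wt/null cells. Dcn (decorin) had 17.9, 18.8 and 16.5 CPM in null/null cells against 26.3, 24.0 and 18.9 CPM in wt/null cells. Both genes kept the genotypes apart, while Col1a1, Col1a2, Pdgfra and Lum overlapped. Endothelial markers were lower in 11 of 13, with a median of -0.18, and their sums overlapped, at 55.4 to 71.2 CPM in null/null libraries and 59.2 to 78.4 CPM in wt/null libraries. Without wt/null isotype 1 the medians were -0.09 for fibroblast and -0.02 for endothelial markers, and without wt/null isotype 2 the endothelial median was -0.33. Fibroblasts and endothelial cells are CD45- and lie outside the sorted gate. In bulk RNA of sorted cells, fewer cells of a type and less RNA per cell cannot be told apart, and the part of these cells in the lower genes was not tested.

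Ptprb, a receptor phosphatase of endothelial cells, had the smallest p of the 13 endothelial markers. It had 2.16, 1.82 and 1.91 CPM in null/null cells (53, 47 and 55 counts) against 5.18, 3.99 and 3.79 CPM in wt/null cells (130, 93 and 109 counts). The log2 fold change was -1.14 ± 0.23 (SE), with an adjusted p of 0.985 in edgeR and 0.0291 in DESeq2. Among the other endothelial markers, Esam, a junction protein, also kept the genotypes apart, at 1.39, 1.12 and 1.49 CPM in null/null cells against 2.47, 1.71 and 1.74 CPM in wt/null cells. Cdh5 differed by -0.37 ± 0.24, Kdr by -0.02 ± 0.44, Tie1 by -0.18 ± 0.21, Vwf by 0.09 ± 0.13 and Egfl7 by 0.45 ± 0.29.

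**Figure D4:**
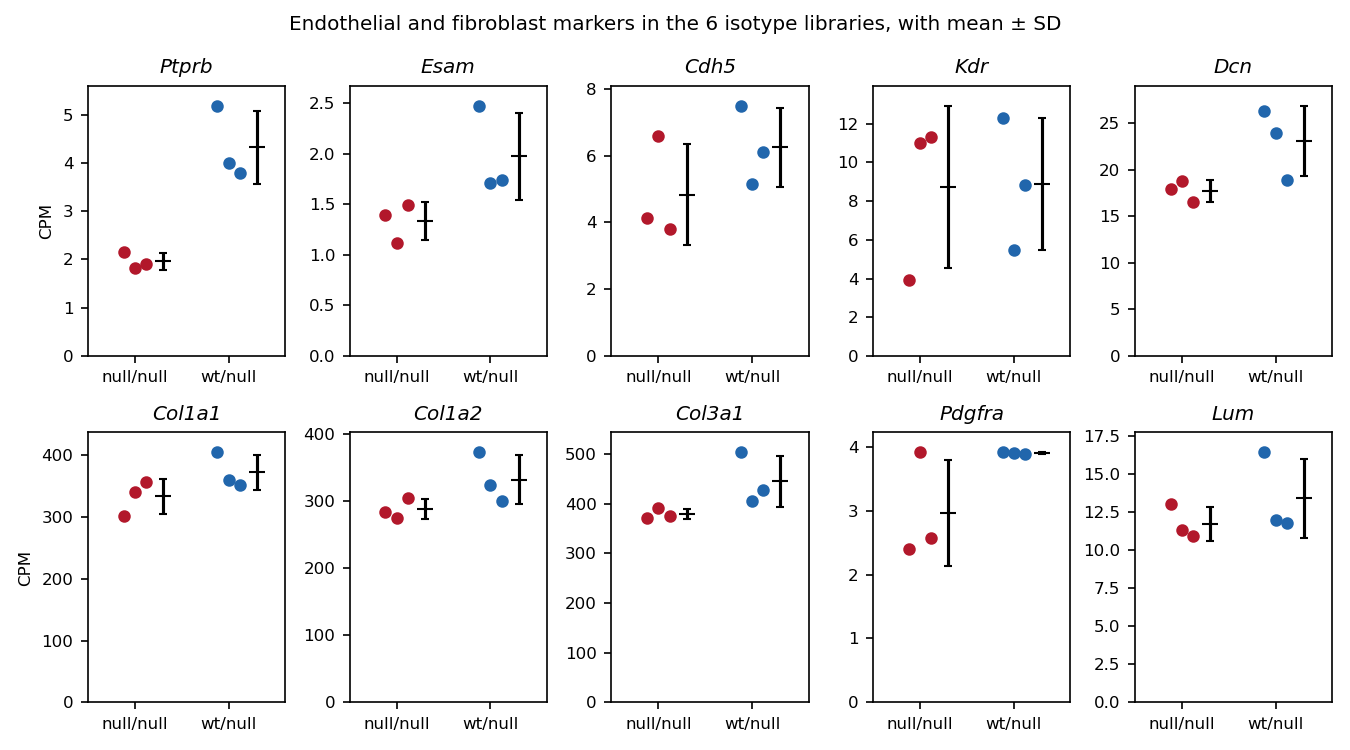
Levels in CPM (vertical axes, from 0) of 4 endothelial markers (Ptprb, Esam, Cdh5, Kdr) and 6 fibroblast markers, in the 3 null/null isotype libraries (red, left) and the 3 wt/null isotype libraries (blue, right), with mean ± SD in black. Ptprb, Esam, Dcn and Col3a1 separate the genotypes, while Cdh5, Kdr, Col1a1, Col1a2, Pdgfra and Lum overlap.

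Genes of macrophage state were mixed. In the reparative list 20 of 27 were higher, with a median of 0.18, but the 1 member at an unadjusted p below 0.05 was lower: Tgfbr1, a receptor for TGF-β, had 366, 316 and 258 CPM in null/null cells against 399, 379 and 389 CPM in wt/null cells. Cd163, the haemoglobin scavenger receptor of resident macrophages, had 67.6, 48.3 and 113 CPM in null/null cells against 54.5, 64.1 and 54.5 CPM in wt/null cells, with null/null isotype 3 alone standing high. Adam8, a surface metalloprotease of leukocytes, separated the genotypes at 322, 337 and 358 CPM in null/null cells against 297, 260 and 275 CPM in wt/null cells. Osteoclast-type and fusion genes were lower in 10 of 13, with a median of -0.18, but this turned to 0.32 without wt/null isotype 3 (-0.06 without null/null isotype 2) and to 0.39 among libraries titled 40. Tnfrsf11a (RANK), the receptor that starts osteoclast formation, was the member that kept the genotypes apart, at 66.6, 74.5 and 62.9 CPM in null/null cells against 78.7, 75.6 and 88.3 CPM in wt/null cells. Complement, Fc receptor, scavenger receptor, iron, NRF2, heat shock, apoptosis, histone and macrophage transcription factor lists had medians between -0.05 and 0.09 and 0 members at an unadjusted p below 0.05.

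IFN-γ-inducible genes, a check on the genotype, were lower in 30 of 32, with a median of -0.35, and 13 had an unadjusted p below 0.05, where 1.73% of all genes met that mark in this direction. None was called in edgeR. Cxcl9, a chemokine for activated T cells, had 3.51, 5.46 and 5.48 CPM in null/null cells against 12.8, 39.9 and 20.9 CPM in wt/null cells, -2.34 ± 0.45. Serpina3f, a serine protease inhibitor, had 0.815, 1.51 and 1.8 CPM in null/null cells against 3.47, 7.46 and 5.01 CPM in wt/null cells, -1.93 ± 0.35. Both kept the genotypes apart while varying within each of them. TTCNNNGAA was found in 11 of the 23 list genes with a promoter. The long noncoding or unnamed genes AW112010 and Gm4951, chosen after their values were seen, had the same direction at -0.92 ± 0.17 and -1.16 ± 0.25, and DESeq2 called both.

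The same genotypes under the anti-TNF antibody gave values from libraries that the isotype comparison does not use. There 0 genes were called in edgeR (0% of 12675), 126 had an unadjusted p below 0.05, and DESeq2 called 1, Ifngr1. Its log2 fold change was -1.33 ± 0.15 there, beside -1.39 ± 0.08 under isotype. The test of the difference between the 2 genotype effects called 0 of 12981 genes (0%) in edgeR, with 196 at an unadjusted p below 0.05. The anti-TNF libraries wt/null 2 and null/null 1 stand apart from the other 10, so the counts of signs are also given without them. Of the 15 genes named as higher, 14 had the same sign under anti-TNF and 13 without those libraries. Of the 15 named as lower, 9 had the same sign, and 8 without them, where 50.2% of all genes had it (51.5% without them). Among the 994 genes without overlap under isotype, 58.4% had the same sign (54.4% of 992 without them).

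With all anti-TNF libraries counted, Pvr and Adora2b were the 2 of the 15 higher genes that also separated the genotypes. In this direction 2.28% of genes did so. Pvr had 43.4, 38.2 and 37.5 CPM in null/null anti-TNF cells against 29.5, 33.2 and 31.2 CPM in wt/null anti-TNF cells, a log2 fold change of 0.34 ± 0.10. Adora2b had 8.25, 7.82 and 9.21 CPM in null/null anti-TNF cells against 3.80, 6.52 and 6.66 CPM in wt/null anti-TNF cells, 0.58 ± 0.24. Nfkb2 and Ccl17, picked from many list members, did so as well: Ccl17 differed by 1.48 ± 0.50 and Nfkb2 by 0.11 ± 0.09. Other list members that stood higher without overlap under isotype did overlap under anti-TNF. Among them were Nfkbie, Il12b, Tnfsf9, Pf4, Ccr7, Mvd, Ndufa2, Adam8 and Pdia6. Overlap was judged here with wt/null anti-TNF 2 and null/null anti-TNF 1 included. Without them Nfkbie separated the genotypes, at 81.5 and 80.7 CPM in null/null against 68.8 and 76.4 CPM in wt/null anti-TNF cells. Mvd then stood lower in null/null cells, and the other members just listed still overlapped. Of the 15 lower genes, 0 separated the genotypes in the same direction, where 2.92% of all genes did. Without wt/null anti-TNF 2 and null/null anti-TNF 1, Marcksl1 stood higher without overlap, at 81 and 74.9 against 69.9 and 65.5 CPM. Knstrn then stood lower without overlap, at 14 and 12 against 17.7 and 15.6 CPM. The share of all genes without overlap is not given for that setting. Over all genes, 29 of the 537 that stood higher without overlap under isotype did so under anti-TNF (5.40%), and 25 of the 457 that stood lower (5.47%).

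Ccl22 and Ptprb were singled out by their isotype values. Those values also enter the differences of effects given here, so the size of these differences is likely overstated. Ccl22 had 27.5, 24.7 and 23.5 CPM in null/null anti-TNF cells against 19.7, 29.6 and 22.8 CPM in wt/null anti-TNF cells, and the isotype effect minus the anti-TNF effect was 0.79 ± 0.28. Ptprb had 3.88, 4.33 and 3.10 CPM in null/null anti-TNF cells against 2.76, 4.06 and 3.25 CPM in wt/null anti-TNF cells, with a difference of effects of -1.31 ± 0.31. Neither passed correction, and the smallest adjusted p of the edgeR interaction test was 1. Both differences include wt/null anti-TNF 2 and null/null anti-TNF 1. Without these libraries Ccl22 stood higher in null/null cells without overlap, at 24.7 and 23.5 against 19.7 and 22.8 CPM. Ptprb still overlapped, at 4.33 and 3.10 against 2.76 and 3.25 CPM. The NF-κB list had 5 of 15 higher under anti-TNF with a median of -0.05, the cytokines 5 of 14 with -0.16, the immediate early genes 2 of 20 with -0.13 and the endoplasmic reticulum list 13 of 23 with 0.01. Ribosomal protein genes had 0 of 20 higher and fibroblast markers 9 of 11. All of these list values include wt/null anti-TNF 2 and null/null anti-TNF 1, which stand apart, and none is given without them. In wt/null anti-TNF 2, Tnf was at 105 CPM and Nfkbia at 451 CPM. In the other anti-TNF libraries Tnf lay between 24 and 41.9 CPM and Nfkbia between 235 and 341 CPM. Whether any of these lists differed between antibodies was not tested.

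**Figure D5:**
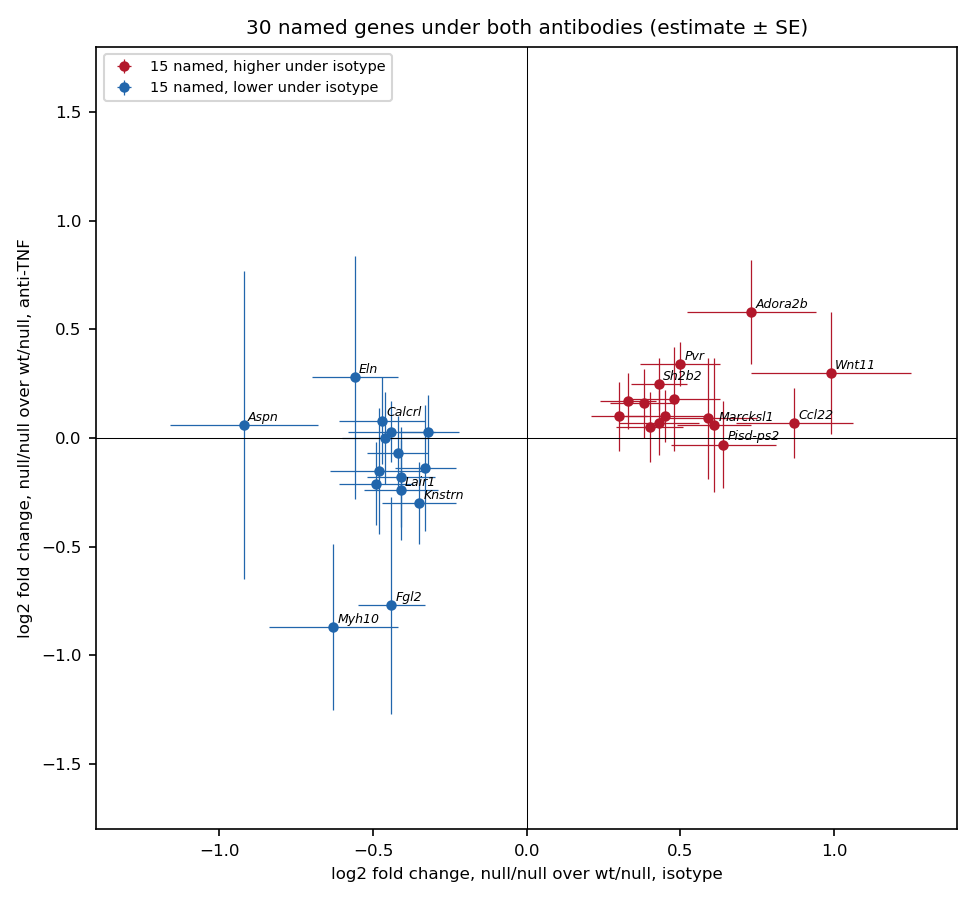
Log2 fold change, null/null over wt/null, under isotype antibody (horizontal axis) and under anti-TNF antibody (vertical axis) for the 15 named higher genes (red) and 15 named lower genes (blue), with SE bars. Position along the horizontal axis was fixed by the choice of genes. Along the vertical axis 14 of the red points lie above 0, and 9 of the blue points lie below it.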

How the data were processed

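The deposited table holds raw read counts per gene symbol, not normalized, from RNA of sorted cells, per the file headers. Per the labels' protocols, RNA was extracted with RNeasy Micro columns and libraries were made with a stranded mRNA kit and sequenced paired-end. The submitters' processing notes name bcl2fastq 2.20, STAR, Bowtie and the mm10 genome, while the counting tool and its strand setting are not given in the sources used here. Overlapping genes may thus share reads. Depth was 23.2 to 29.9 M counts in the 6 isotype libraries, and the filter kept at least 99.96% of them.

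Counts were tested with edgeR 4.0.16 (R 4.3.3; filterByExpr, TMM scaling, robust quasi-likelihood test, two-sided, Benjamini-Hochberg adjustment, called at an adjusted p below 0.05) on the 6 isotype libraries alone. The anti-TNF contrast and the interaction were fitted the same way. Folds used the default prior count of the edgeR fit, and the log2 CPM behind the principal components used a prior count of 2. Coordinates come from the GENCODE annotation of GRCm38, which matched 95.7% of symbols. The members and lists (50 lists; 798 of 811 genes found) were chosen with earlier results of these data known. Named genes were the 15 with the smallest p each way among genes without overlap that averaged 2 or above in log2 CPM, outside the IFN-γ-inducible list and placeholder symbols, plus up to 4 members per list with the smallest p. Alternatives were DESeq2 1.42.0, limma 3.58.1 (voom with quality weights), other scaling and filters, all 12 libraries, title blocks, titles 40 alone and each library left out. The scripts were tested on simulated data. Some items are not reported here.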

Additional observations from a re-analysis of the deposited data

How the results depend on the processing

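Ifngr1 was called under every alternative run for it, with log2 fold changes from -1.41 to -1.36. The count of called genes was 1 with edgeR and 10 with DESeq2 (AW112010, Ccl22, Cxcl9, Gbp6, Gm4951, Ifngr1, Iigp1, Marcksl1, Ptprb and Serpina3f). It was 1 to 2 when 1 library was left out, where Iigp1 joined without null/null isotype 3. Title stems (40B, 40C, 46C) recur in both genotypes, but their meaning is not given. The correlations of deviations were -0.011, 0.076 and 0.14 for same-stem pairs, and ran from -0.16 to 0.074 for different-stem pairs. Whether libraries were paired by stem was not tested. With the stem as a replicate block the count was 2, with Ccl22 at an adjusted p of 0.0181 in edgeR. Genes at an unadjusted p below 0.05 numbered 391, against 1097 with limma voom, 234 when all 12 libraries shared 1 fit, and 240 to 1641 when 1 library was left out. Under anti-TNF the count of called genes was 0 with edgeR, 1 with DESeq2, and 2 (Gbp2 and Ifngr1) without the libraries that stand apart. The interaction count was 0 under every alternative run. The cause of these shifts was not tested. Genes of a few CPM rest on few counts (47 to 130 for Ptprb).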
